A study of Homo sapiens with 44 samples.

Results

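Claudins, numbered cadherins, desmosomal cadherins and the plaque, scaffold and nectin proteins that join them were followed as steady state transcript levels in the human line ZR-75-1, long established from breast cancer, of luminal type and with both estrogen and progesterone receptors. Genes were taken by symbol: CLDN or CDH followed by a number, DSC1 to DSC3, DSG1 to DSG4, PKP1 to PKP4, TJP1 and TJP3, NECTIN1 to NECTIN4, and DSP, JUP, PPL, EVPL, OCLN and F11R. The annotation used here gave 50 such genes of 14884 named genes in all, among them the antisense RNAs CLDN10-AS1 and NECTIN3-AS1, whose symbols fit the same pattern, and each gene had 1 transcript cluster. Of these, 43 were above the background rule and entered the tests, whereas CLDN10-AS1, CLDN17, CLDN20, DSC1, DSG1, DSG4 and NECTIN3-AS1 did not. The only numbered cadherins among them were CDH23 and CDH26, and CDH1 and F11R were not analysed here.

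Pretreatment lasted 72 h and consisted of estradiol (E2, 10 nM) or its ethanol vehicle, after which further hormone was overlaid on the same medium. Cells pretreated with E2 are called E2p. Their overlay was vehicle, harvested after 0, 4, 8 or 16 h, or progesterone (P4, 10 nM), or the synthetic progestin medroxyprogesterone acetate (MPA, 10 nM), each harvested after 4, 8 and 16 h. Further E2p cells had fresh E2 (10 nM), by itself or combined with a progestin, for 16 h, whereas unprimed cells had vehicle in both steps, the second for 16 h. All groups therefore share the same line at passage 16 and stripped serum, and the E2p groups still held the priming E2. There were 44 arrays in 14 groups, of which the E2p E2+P4 group had 5 arrays and each of the other 13 had 3. Nothing in the labels makes the replicates more than separate wells, and the spread behind each p-value is that between these samples and may be technical.

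Tight junctions seal the space between epithelial cells near their apical side. Claudins and occludin are their membrane proteins, which decide what passes between cells, and the ZO scaffolds (TJP genes) tie them to actin. Nectins form the first adhesive contacts of the adherens junction. Desmosomes hold cells together mechanically, where desmogleins (DSG) and desmocollins (DSC) of neighbouring cells meet in the gap, plakoglobin (JUP) and plakophilins (PKP) bind their tails, and plakins such as desmoplakin (DSP) and periplakin (PPL) tie this plaque to keratin filaments. In the mammary gland luminal cells carry such junctions, and progestins and E2 act on these cells through nuclear receptors.

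Levels are deposited RMA values on the log2 scale, and array medians lay between 5.52 and 5.67. Levels of different genes come from different probes and are not compared. A gene was called when its limma adjusted p over all 41374 tested clusters was at most 0.05, and errors of changes are standard errors (SE) of that fit. Of the luminal markers, EPCAM, KRT8, KRT18, KRT19, ESR1 and GATA3 were above the 30th percentile of their array on all 44 arrays. Being above it does not separate cell types. The endothelial VWF, KDR and CLDN5 and the mesenchymal VIM and FN1 also passed it on all 44 arrays. PECAM1 passed it on 43 and the immune marker CD14 on 40. After priming or after P4 or MPA of any length, 0 of the 4 endothelial markers tested (CLDN5 among them) and 0 of 1 immune marker tested were called. Priming raised FN1 (0.50) and the myoepithelial MYLK (0.43) and lowered the myoepithelial OXTR (-0.64). KRT5, also myoepithelial, was called higher at every time of P4 and MPA, and FN1 lower at 8 and 16 h of both. PGR, the progesterone receptor gene and a known E2 target, was 2.13 higher on the log2 scale after priming, and FKBP5, a known progestin target, was 2.32 higher after 16 h of P4.

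Estrogen priming lowered 13 junction transcripts and raised 2, and progestins at 16 h raised most of those they changed, 19 of 21 with P4 and 16 of 17 with MPA. Between E2p and unprimed cells at 16 h, 2 of the 43 tested junction genes were higher and 13 were lower, where 3.92% and 8.23% of all named genes were called in those directions. P4 for 4 h raised 3 and lowered 7 (6.88% and 5.43% of named genes), P4 for 8 h raised 10 and lowered 3 (9.85% and 11.4%), and P4 for 16 h raised 19 and lowered 2 (13.4% and 12%). MPA raised 6 and lowered 5 at 4 h (6.64% and 6.65%), raised 10 and lowered 5 at 8 h (10.1% and 12.5%), and raised 16 and lowered 1 at 16 h (11% and 14.5%). The median change of the 43 genes after 16 h was 0.14 log2 with P4, beside -0.01 for all named genes, and 0.22 with MPA, beside 0. P4 and MPA of 1 length share the same vehicle arrays, so their counts are not independent of each other. The counts depend on the spread estimated over all groups: when the arrays of each comparison were fitted alone, 8 were called for priming, 2 for P4 at 4 h, 3 for MPA at 4 h and 10 for MPA at 16 h. Those left at 4 h were all higher, and 0 were called lower at 4 h with either progestin.

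**Figure D1:**
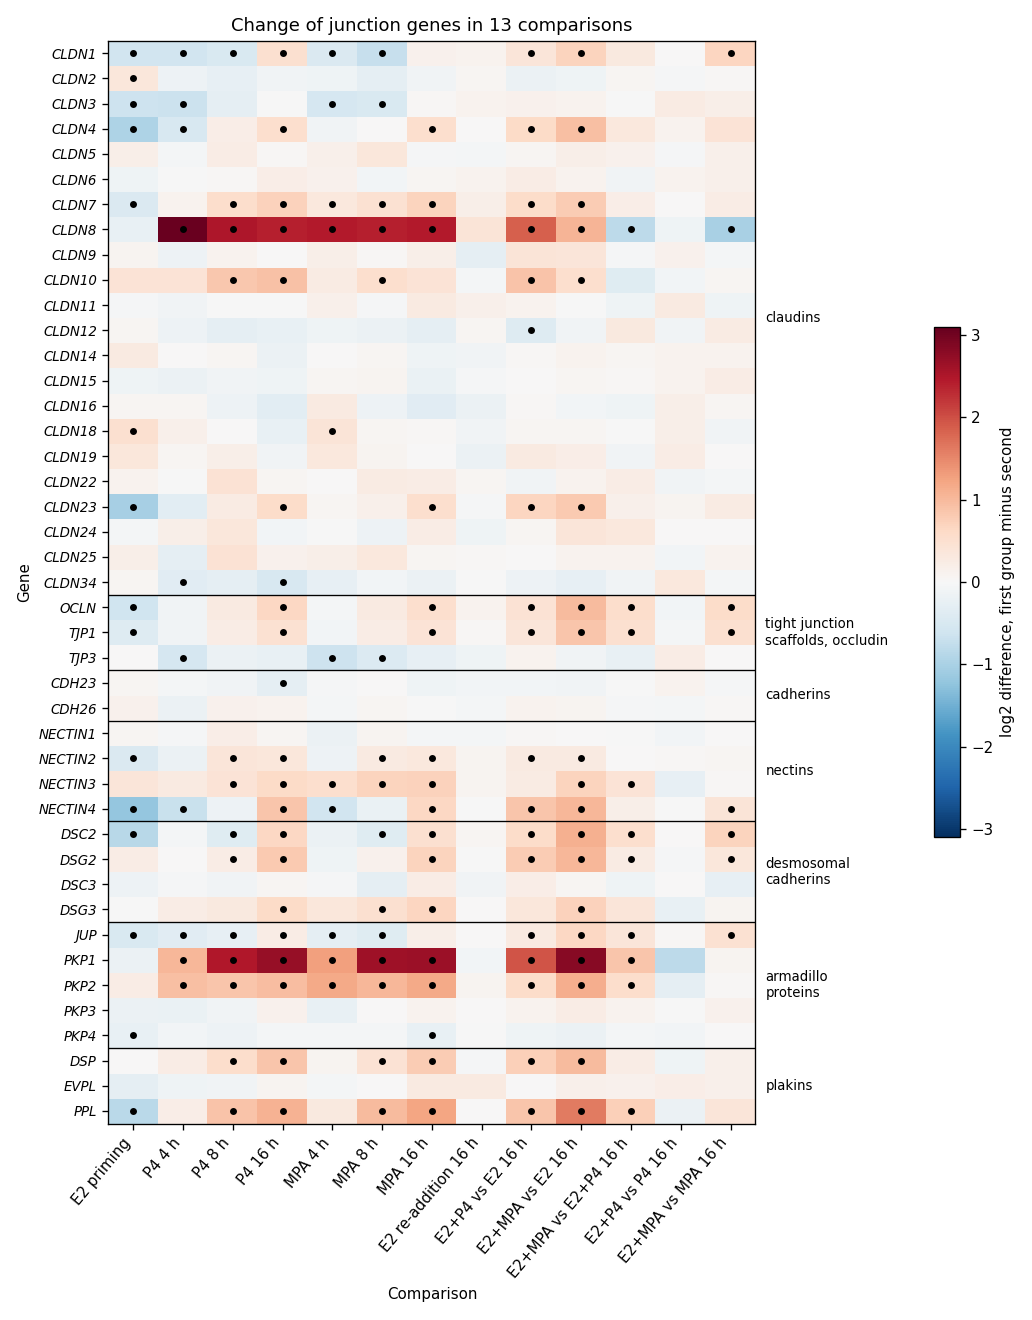
Log2 difference (colour) of the 43 tested junction genes, ordered by role, in 13 comparisons, with a black dot where a gene was called. The called genes of the first column are mostly blue, with 13 lower, and those of the P4 and MPA columns at 16 h mostly red, with 19 and 16 higher.

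Claudin 8 had the largest 4 h change of these genes with either progestin. CLDN8, which codes for a sealing claudin known from kidney and gut epithelium, had levels of 6.09, 6.80 and 6.65 on the arrays of 4 h vehicle and 9.66, 9.61 and 9.44 on those of 4 h P4. Its P4 arrays stood far above every vehicle array, and the change was 3.06 ± 0.16 (SE; 8.32-fold, adjusted p = 1.24e-15). At 16 h it measured 6.22, 5.93 and 5.89 with vehicle against 8.62, 8.37 and 8.24 with P4, a change of 2.40 ± 0.16 (adjusted p = 2.08e-13). The P4 effect on CLDN8 was thus present at the first time measured and still present at the last. MPA gave 8.96, 8.98 and 8.99 at 4 h (2.46 ± 0.16) and 8.30, 8.51 and 8.63 at 16 h (2.46 ± 0.16, adjusted p = 1.01e-13). At 8 h the changes of CLDN8 were 2.50 with P4 and 2.42 with MPA, both called. Priming itself did not alter CLDN8 beyond the test, with 6.37, 6.01 and 6.34 in unprimed cells and a difference of -0.23 (95% interval -0.56 to 0.11).

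Other claudins were lowered by priming and, in part, raised again by progestins. CLDN23, a claudin of simple epithelium, measured 7.79, 7.83 and 7.91 in unprimed cells and 6.71, 6.71 and 6.99 in E2p cells with 16 h vehicle. It fell by 1.04 ± 0.12 (adjusted p = 1.12e-07). With 16 h P4 it measured 7.39, 7.14 and 7.55, higher than vehicle by 0.56 ± 0.12 (adjusted p = 0.001), and with 16 h MPA 7.40, 7.31 and 7.24, higher by 0.51 ± 0.12. All of these P4 and MPA arrays remained below all unprimed arrays. CLDN4, a claudin of simple epithelium that is also a receptor for a clostridial toxin, fell by 0.96 ± 0.13 with priming (6.95 ± 0.07 to 5.99 ± 0.08, SD, n = 3 each) and was higher by 0.52 ± 0.13 after 16 h of P4 and by 0.53 ± 0.13 after 16 h of MPA. CLDN7, which codes for a claudin that also lies along the lateral membrane, fell by 0.45 ± 0.08 after priming and was higher by 0.72 ± 0.08 after 16 h of P4 (adjusted p = 2.06e-08). CLDN7 was the exception among the priming-lowered claudins in already being higher at 8 h of P4, by 0.55 ± 0.08. CLDN1, a barrier-forming claudin of skin and other epithelia, fell by 0.60 ± 0.12 after priming and was higher by 0.50 ± 0.12 after 16 h of P4, while MPA at 16 h gave 0.13 (95% interval -0.11 to 0.37), which was not called. Before that, CLDN1 was called lower at 4 and 8 h of both progestins. Its 8 h means were 11.06 with P4 and 10.82 with MPA against 11.53 with vehicle, changes of -0.47 and -0.71. The call at 4 h of MPA (-0.44) was lost without MPA replicate 2 (adjusted p = 0.109) or 3 (0.0941). MPA without fresh E2 thus gave no call of higher CLDN1 at any time.

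CLDN3, another barrier claudin, went its own way. It fell by 0.64 ± 0.11 (12.42 ± 0.06 to 11.78 ± 0.09, SD, n = 3 each) with priming. It fell by 0.66 ± 0.11 after 4 h of P4 and fell by 0.51 ± 0.11 after 4 h of MPA, and was also called lower at 8 h of MPA. At 16 h its differences from vehicle were -0.02 (95% interval -0.24 to 0.20) with P4 and 0.03 (-0.18 to 0.25) with MPA. CLDN10, known as a claudin that forms ion pores, was higher by 0.84 ± 0.16 at 8 h and 0.92 ± 0.16 at 16 h of P4, and by 0.53 ± 0.16 at 8 h of MPA, whereas the difference of 0.42 at 16 h of MPA was not called (adjusted p = 0.0663). The CLDN10 call at 8 h of MPA was lost without MPA replicate 2 or 3 or vehicle replicate 1 or 3 (adjusted p between 0.0573 and 0.0878). Priming raised CLDN18 by 0.49 ± 0.11, a call lost in the fit of the compared arrays alone (adjusted p = 0.153). Priming also raised CLDN2, a known pore-forming claudin, by 0.36 ± 0.11, but the CLDN2 call was fragile. It was lost with array weights (0.22, adjusted p = 0.144), with centring (0.0767), without the filter on low values (0.0522), in the fit of these arrays alone (0.244) and without vehicle replicate 1 (0.116) or 3 (0.185) or unprimed replicate 2 (0.226) or 3 (0.0676). CLDN34 fell by 0.36 ± 0.11 at 4 h and fell by 0.49 ± 0.11 at 16 h of P4. Its 4 h call was lost without the filter (adjusted p = 0.0571), with array weights (0.0817), with the replicate block (0.0553), in the fit of these arrays alone (0.453) and without P4 replicate 1 (0.25) or 3 (0.0917) or vehicle replicate 1 (-0.24, 0.297). The other claudins CLDN5, CLDN6, CLDN9, CLDN11, CLDN14, CLDN15, CLDN16, CLDN19, CLDN22, CLDN24 and CLDN25 were called in none of the 16 pairwise comparisons. CLDN22 and CLDN24 are near copies of each other, so that their probes may not tell them apart.

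Of the membrane and scaffold partners of the claudins, OCLN and TJP1 were lower after priming and higher at 16 h of either progestin, and TJP3 was not. OCLN, which codes for occludin, fell by 0.62 ± 0.13 with priming (10.34 ± 0.02 to 9.72 ± 0.16, SD, n = 3 each), and was higher than vehicle by 0.65 ± 0.13 after 16 h of P4 and 0.52 ± 0.13 after 16 h of MPA. TJP1, the gene of the scaffold ZO-1, fell by 0.39 ± 0.10 with priming and was higher by 0.48 ± 0.10 with P4 and 0.42 ± 0.10 with MPA at 16 h. At 4 h of P4 neither was called, with -0.11 for each. TJP3, the gene of the scaffold ZO-3, was called lower early. It fell by 0.51 ± 0.09 after 4 h of P4, and with MPA it fell by 0.63 ± 0.09 after 4 h and fell by 0.42 ± 0.09 after 8 h, and its 16 h differences of -0.24 and -0.25 were not called (adjusted p = 0.0809 and 0.0649). Priming did not change TJP3 beyond the test.

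Among the nectins, NECTIN4, the target of an antibody drug used in urothelial cancer, had the deepest fall with priming. It measured 9.29, 9.41 and 9.34 on the unprimed arrays and 8.19, 8.32 and 7.89 in E2p cells with 16 h vehicle, a difference of -1.21 ± 0.11 (adjusted p = 2.68e-10). After 4 h of P4 it measured 7.26, 7.19 and 7.12, against 7.69, 8.00 and 7.95 with 4 h vehicle, so that it fell by 0.69 ± 0.11 more. At 16 h of P4 the arrays read 9.02, 8.94 and 9.0, which was 0.85 ± 0.11 above vehicle (adjusted p = 1.95e-07). Its level under P4 therefore crossed its vehicle level between 4 and 16 h, and MPA gave the same pair of calls with -0.60 ± 0.11 at 4 h and 0.64 ± 0.11 at 16 h. NECTIN2, a ligand of immune receptors as well as an adhesion protein, fell by 0.44 ± 0.07 with priming and was higher by 0.35 ± 0.07 with P4 and 0.32 ± 0.07 with MPA at 16 h. NECTIN3, the partner of other nectins across cell contacts, was higher by 0.59 ± 0.13 with P4 and 0.72 ± 0.13 with MPA at 16 h. NECTIN1 was called in none of the 16 pairwise comparisons. Of the cadherins, CDH23, known from the tip links of inner ear hair cells, fell by 0.29 ± 0.09 after 16 h of P4, and CDH26 was never called. The CDH23 call was lost without P4 replicate 2 (adjusted p = 0.124) or vehicle replicate 2 (0.0579) or 3 (0.0839), and in the fit of these arrays alone (0.135).

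Of the desmosomal cadherins, DSC2 and DSG2, the pair used by simple epithelia, were both higher at 16 h of either progestin but differed before that. DSC2 measured 9.59, 9.67 and 9.52 in unprimed cells and 8.86, 8.77 and 8.61 after priming, a difference of -0.85 ± 0.10 (adjusted p = 3.04e-07). P4 for 16 h took it to 9.40, 9.24 and 9.51, higher than vehicle by 0.64 ± 0.10, whereas at 8 h its change was -0.38 ± 0.10, also called. MPA gave 9.14, 9.27 and 9.29 at 16 h (0.49 ± 0.10) and a lower level at 8 h (-0.37 ± 0.10). Both 8 h calls were lost without the first 8 h vehicle array (adjusted p = 0.0549 and 0.0649), and that of MPA also without the first MPA array (0.10). DSG2 was not called lower after priming. It measured 10.10, 10.07 and 10.05 in unprimed and 10.33, 10.33 and 10.28 in E2p cells, and the difference of 0.24 was not called (adjusted p = 0.0553). At 8 h of P4 DSG2 was higher by 0.23 ± 0.08 (adjusted p = 0.0437). With 16 h P4 it read 11.14, 11.03 and 11.18 (0.80 ± 0.08, adjusted p = 5.49e-10), and with 16 h MPA 10.93, 11.03 and 11.03 (0.68 ± 0.08). DSG3, a desmoglein of stratified epithelium, was not above the 30th percentile on any 16 h vehicle array. It was called higher at 16 h of P4 and of MPA (adjusted p = 0.00425 and 0.00154). Its means there were 1.29 and 1.34 times the mean percentile of the vehicle arrays, a bound from means that leaves out their error. DSC3 was above that percentile on all 44 arrays and never called. The 7 desmosomal cadherin genes are neighbours on chromosome 18 in the order DSC3, DSC2, DSC1, DSG1, DSG4, DSG3 and DSG2. Of these DSC2, DSG2 and DSG3 were called in some pairwise comparison, DSC3 was tested and not called, and DSC1, DSG1 and DSG4 were not tested. Likewise CLDN3 and CLDN4 are neighbours on chromosome 7, and only CLDN4 was higher at 16 h of P4, while CLDN8 lies next to CLDN17, which was above the percentile on 0 arrays.

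The plaque proteins of the armadillo family held the largest late change. PKP1, the gene of plakophilin 1 of stratified epithelia, measured 6.02, 5.72 and 5.25 on the 4 h vehicle arrays and 6.72, 6.54 and 6.85 after 4 h of P4 (1.04 ± 0.24). After 16 h it measured 5.71, 5.83 and 5.94 with vehicle and 8.43, 8.62 and 8.49 with P4, which was 2.69 ± 0.24 higher (6.43-fold, adjusted p = 1.18e-10). MPA arrays read 8.29, 8.83 and 8.35 at 16 h (2.66 ± 0.24). No P4 or MPA array overlapped a vehicle array of the same time, and 8 h already gave 2.49 ± 0.24 and 2.62 ± 0.24. PKP2, the plakophilin of simple epithelium and heart, measured 9.41, 9.11 and 9.27 with vehicle and 10.27, 10.13 and 10.23 with P4 at 16 h (0.95 ± 0.11), and 10.42, 10.37 and 10.53 with MPA (1.18 ± 0.11). Its change at 4 h was of similar size, 0.94 ± 0.11 with P4 and 1.18 ± 0.11 with MPA, so that PKP2 was near its late level at the first time measured and PKP1 was not. JUP, which serves both desmosomes and adherens junctions, was lowered by priming (-0.47 ± 0.07) and by 4 h of P4 (-0.34 ± 0.07) and MPA (-0.27 ± 0.07), and was higher by 0.24 ± 0.07 at 16 h of P4, while 0.18 at 16 h of MPA was not called (adjusted p = 0.0964). JUP was also called lower at 8 h of P4 (-0.26) and of MPA (-0.37). The 8 h call of P4 was lost without P4 replicate 3 (adjusted p = 0.0561). The JUP call at 4 h of MPA was lost without MPA replicate 2 (adjusted p = 0.0868) or 3 (0.054) or vehicle replicate 2 (0.0742). PKP4 fell by 0.22 ± 0.07 with priming and fell by 0.23 ± 0.07 with 16 h of MPA, the latter lost without MPA replicate 1 (adjusted p = 0.0796) or 2 (0.11) or vehicle replicate 1 (0.0958). PKP3 was called in none of the comparisons, with 0.14 (95% interval -0.07 to 0.35) at 16 h of P4 and 0.12 (-0.09 to 0.33) at 16 h of MPA.

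Of the plakins, PPL combined a fall with priming and a rise with progestins. It measured 9.51, 9.32 and 9.42 in unprimed cells, 8.55, 8.84 and 8.33 with E2p vehicle (-0.84 ± 0.16), 9.52, 9.56 and 9.86 with 16 h P4 (1.07 ± 0.16, adjusted p = 3.9e-06) and 9.93, 9.91 and 9.58 with 16 h MPA (1.23 ± 0.16). The P4 and MPA arrays at 16 h thus lay above the unprimed arrays, but the lowest P4 array (9.52) only just passed the highest unprimed one (9.51). The E2+P4 arrays, at 9.28, 9.82, 9.46, 9.07 and 9.67, overlapped the unprimed arrays. Progestin-treated and unprimed cells were not tested against each other. At 8 h PPL was already higher than vehicle, by 0.89 with P4 and 0.98 with MPA, both called. DSP, the gene that links the plaque to keratins, was not called after priming (0.02, 95% interval -0.15 to 0.19), and rose by 0.54 ± 0.08 at 8 h and 0.85 ± 0.08 at 16 h of P4, with 0.44 ± 0.08 and 0.78 ± 0.08 for MPA. EVPL, the gene of envoplakin, the partner of periplakin in the cornified envelope, was called in no pairwise comparison.

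**Figure D2:**
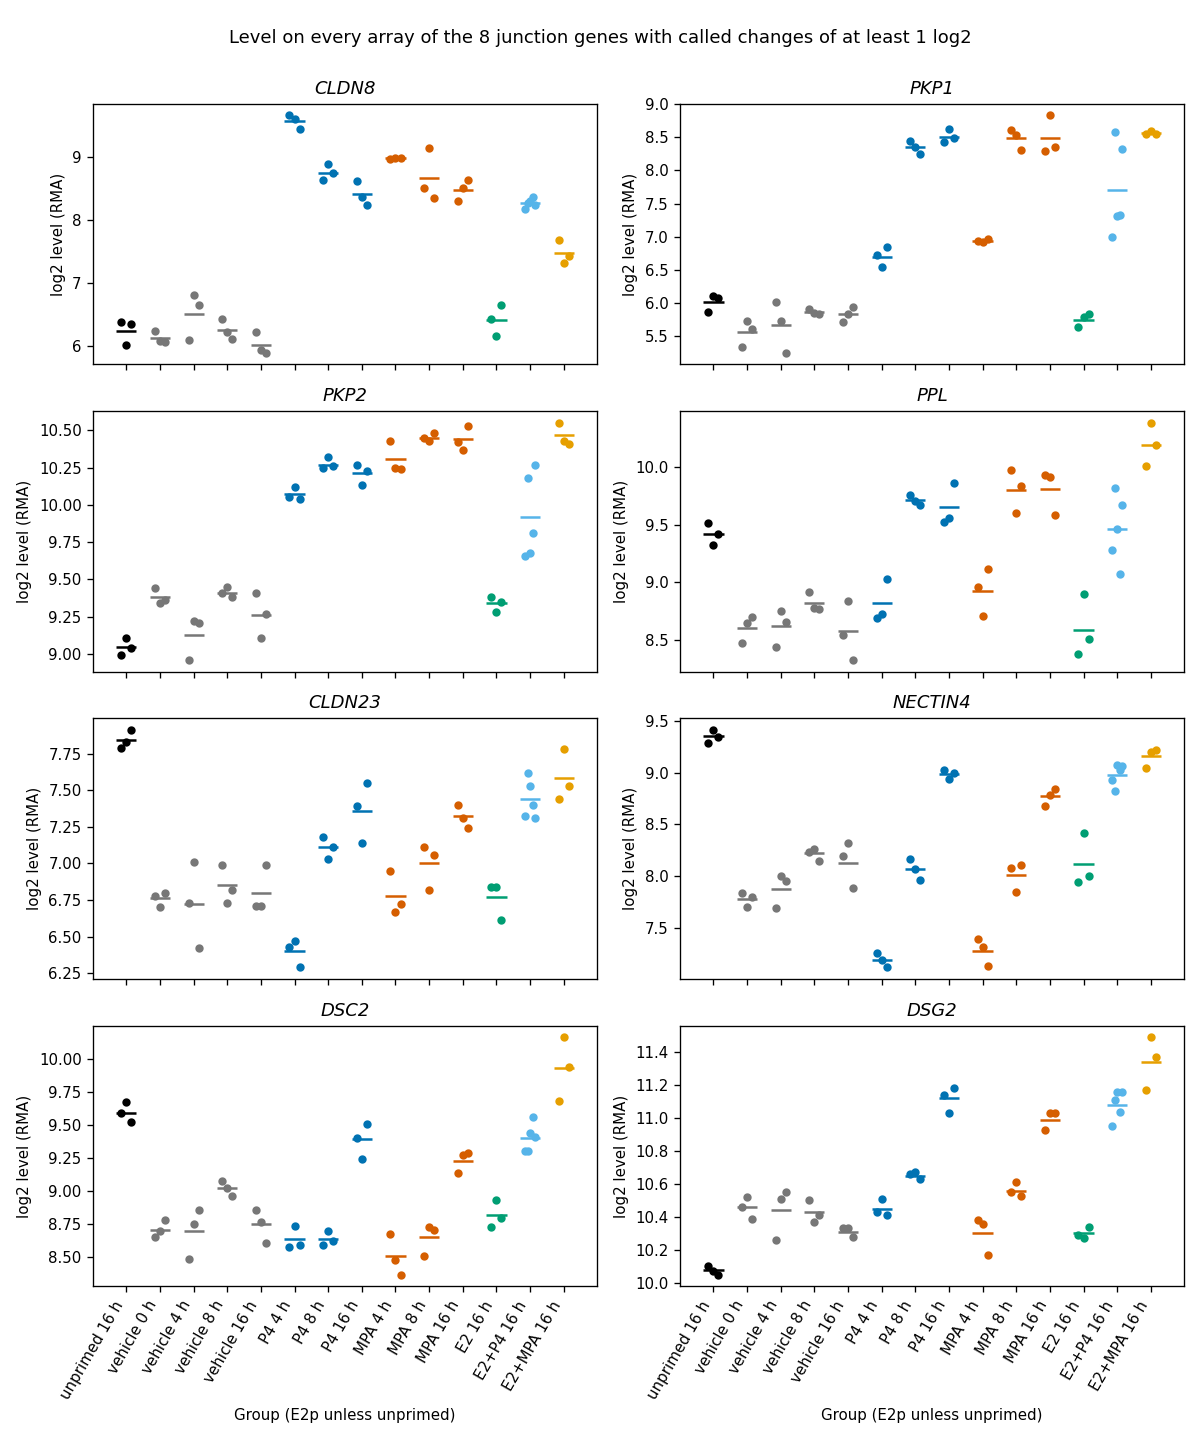
Level (log2, RMA) on every array in all 14 groups for the 8 junction genes called with a change of at least 1 log2 in some pairwise comparison, with a line at each group mean. CLDN8 and PKP1 are high in progestin groups alone, whereas NECTIN4, CLDN23, DSC2 and PPL are high in unprimed cells and were called higher at 16 h of progestin. The 5 arrays of E2+P4 spread from 6.99 to 8.58 for PKP1.

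Upstream sequences were read for those of the 8 genes that the promoter table holds, to show what lies before the genes with the largest changes. The table (RefSeq, build GRCh38.p14) matched 39 of the 50 genes with 58 start sites. Shown are the 250 bases before the start, 5′ to 3′ on the strand of the gene, with the E-box CAGGTG, a hexamer that SNAI and ZEB repressors bind, in capitals on either strand (where it reads CACCTG). NECTIN4 lies at chr1:161089559-161089808 on the minus strand, PKP1 at chr1:201283256-201283505 on the plus strand, DSC2 at chr18:31102422-31102671 on the minus strand (the farther upstream of its start sites) and DSG2 at chr18:31497927-31498176 on the plus strand.
NECTIN4: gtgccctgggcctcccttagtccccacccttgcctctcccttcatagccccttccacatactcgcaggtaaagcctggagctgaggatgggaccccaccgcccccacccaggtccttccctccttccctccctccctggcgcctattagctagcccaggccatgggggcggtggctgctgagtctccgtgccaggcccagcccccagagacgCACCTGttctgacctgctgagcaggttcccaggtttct
PKP1: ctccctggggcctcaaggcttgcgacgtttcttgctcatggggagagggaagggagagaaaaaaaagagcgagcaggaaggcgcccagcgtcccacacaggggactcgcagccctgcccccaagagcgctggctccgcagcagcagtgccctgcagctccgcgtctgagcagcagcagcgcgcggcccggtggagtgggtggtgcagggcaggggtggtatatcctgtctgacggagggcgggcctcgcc
DSC2: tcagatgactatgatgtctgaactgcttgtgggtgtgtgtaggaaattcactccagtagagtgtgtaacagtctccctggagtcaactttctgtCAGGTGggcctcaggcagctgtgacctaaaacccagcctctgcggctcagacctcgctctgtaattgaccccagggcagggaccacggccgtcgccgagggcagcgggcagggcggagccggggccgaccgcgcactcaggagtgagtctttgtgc
DSG2: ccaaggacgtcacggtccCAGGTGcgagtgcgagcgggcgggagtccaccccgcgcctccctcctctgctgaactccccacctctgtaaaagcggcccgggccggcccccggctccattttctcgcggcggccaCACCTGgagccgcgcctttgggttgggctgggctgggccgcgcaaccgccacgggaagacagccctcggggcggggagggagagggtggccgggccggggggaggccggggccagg
NECTIN4 had 1 match beginning 38 bases before the start, the DSC2 start site shown had 1 at 156 and DSG2 had 2 at 232 and 116. PKP1 had none in this window, and neither had the other start site of DSC2 (chr18:31101261-31101510). In windows that also take in the first 50 bases after the start, CAGGTG was found on either strand in 19 of the 58 start sites of the junction genes (32.8%) and in 20.6% of all 35116 start sites. The half-site pair ACANNNTGT of the progesterone, glucocorticoid and androgen receptors was found in 4 of the 58 (6.9%), before CLDN16, DSG3, NECTIN3-AS1 and TJP1, and in 5.37% of all. The estrogen response element, GGTCA and its inverted repeat with 3 bases between, was in 0 of the 58 and in 0.057% of all. Several start sites of 1 gene can share sequence, and the matches are descriptions of letters, not of binding.

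To ask whether the progestin effect itself changed with time, the effect at 16 h was compared with that at 4 h, each against its own vehicle. For P4, 15 junction genes had a more positive effect at 16 h and 0 a more negative one (6.42% and 4.92% of named genes). For MPA the counts were 12 and 0 (3.85% and 3.85%). PKP1 gained 1.65 ± 0.34, NECTIN4 1.54 ± 0.15, CLDN1 1.10 ± 0.17 and CLDN4 1.01 ± 0.18 between 4 and 16 h of P4. With P4, CLDN1, CLDN4, JUP and NECTIN4 were called lower at 4 h and higher at 16 h. The 4 h call of CLDN4 was lost without P4 replicate 1 (adjusted p = 0.147) or vehicle replicate 2 (0.0749). With MPA only NECTIN4 was called lower at 4 h and higher at 16 h, and the gains of CLDN1 (0.58 ± 0.17), CLDN4 (0.65 ± 0.18) and JUP (0.45 ± 0.10) were called as well. When only the arrays compared were fitted, 0 of these genes were called lower at 4 h of P4 or MPA. For NECTIN4 the adjusted p in limma was then 0.0556 with P4 and 0.139 with MPA. CLDN3 gained 0.64 ± 0.15 with P4 although its 16 h difference from vehicle was only -0.02. The vehicle overlays themselves were not flat for every gene: over 0, 4, 8 and 16 h, 2 junction genes were called by the F test (2.18% of named genes), CLDN1 (adjusted p = 0.0173) and NECTIN4 (adjusted p = 0.0415). CLDN1 measured 11.04, 11.02 and 10.90 with 4 h vehicle, below all arrays of the other vehicle times (11.35 to 11.56), so that its values at 4 h of progestin were compared with a lower vehicle level than those at 16 h.

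**Figure D3:**
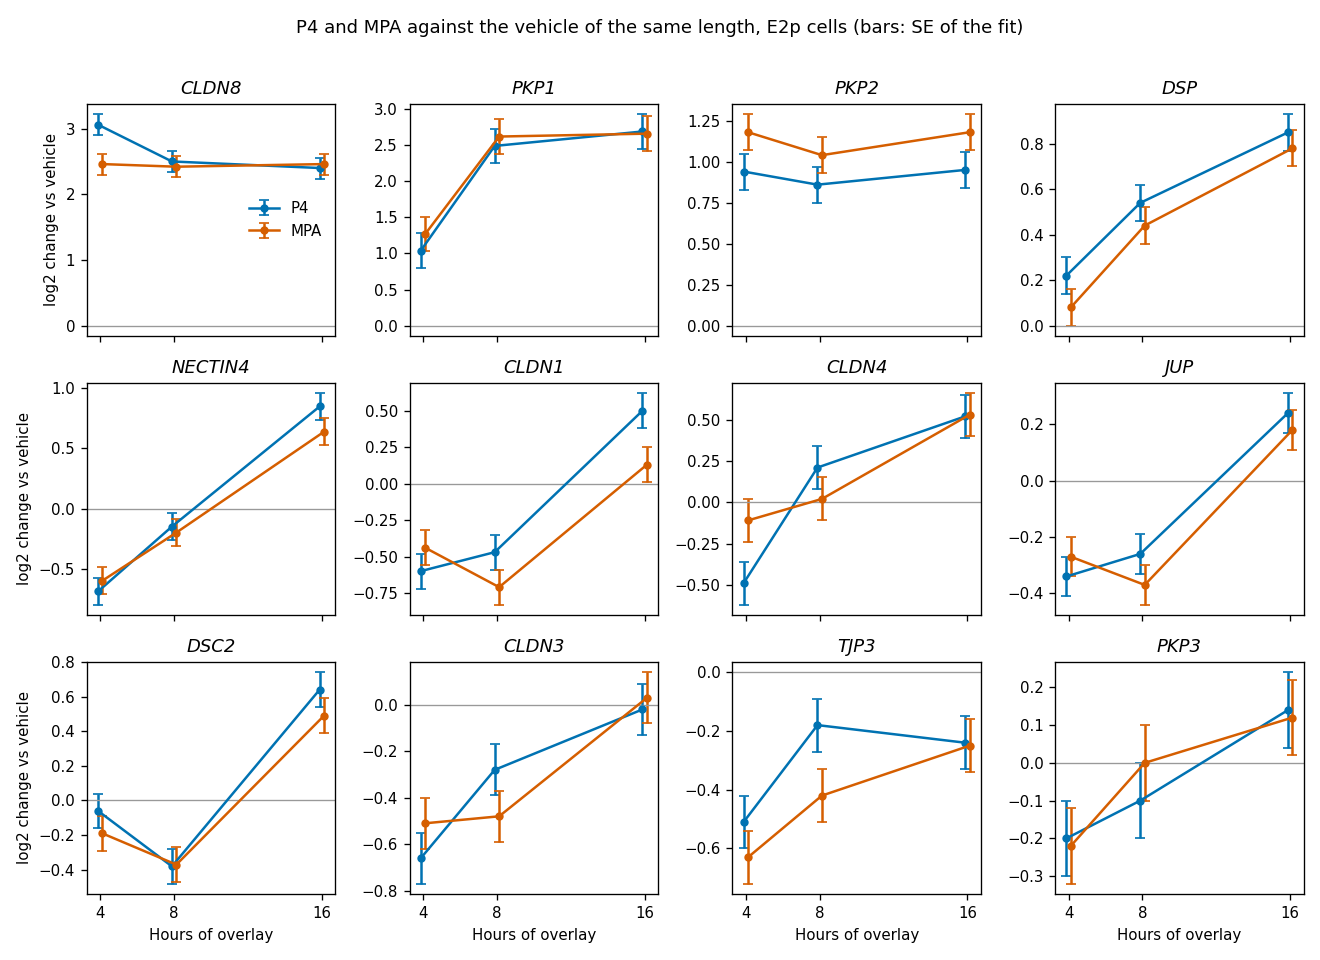
Log2 change against the vehicle of the same length (vertical axis) at 4, 8 and 16 h of P4 or MPA for 12 junction genes, with bars for the SE of the fit. CLDN8 and PKP2 are high from 4 h, PKP1 and DSP climb, and PKP3 was not called at any time. In the fit of all arrays, NECTIN4 (either progestin), CLDN1, CLDN4 and JUP (P4) pass from called below vehicle at 4 h to called above it at 16 h.

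Fresh E2 for 16 h on top of the priming E2 gave no call in these genes: 0 of 43 passed (0.00743% of named genes higher and 0% lower), 3 had an unadjusted p under 0.05 in limma, and the differences lay between -0.27 and 0.40, with 95% intervals between -0.61 and 0.73 for all 43. P4 together with fresh E2 was compared with fresh E2 alone, and 17 junction genes were higher and 1 was lower (9.9% and 11.8% of named genes). The higher ones were led by PKP1 (1.96 ± 0.21), CLDN8 (1.86 ± 0.15), CLDN10 (0.89 ± 0.14), PPL (0.86 ± 0.14), NECTIN4 (0.86 ± 0.10) and DSG2 (0.79 ± 0.07), and the lower one was CLDN12, a claudin that lacks the usual scaffold-binding tail (-0.41 ± 0.10). This comparison shares no array with that of P4 and vehicle in E2p cells, and all 17 genes were among the 19 raised there (100% and 89.5%), where 83.9% of the named genes raised by E2+P4 were raised by P4 (61.9% of the latter). Nor does it share an array with priming: 11 of the 13 genes lowered by priming (84.6%) were higher with E2+P4 than with E2 (64.7% of the 17), beside 29.8% of the named genes lowered by priming and 24.8% of those raised by E2+P4. These 11 were CLDN1, CLDN4, CLDN7, CLDN23, DSC2, JUP, NECTIN2, NECTIN4, OCLN, PPL and TJP1, and the remaining 2 were CLDN3 and PKP4.

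MPA with fresh E2 raised these genes without lowering any. Against E2 alone, 19 junction genes were higher and 0 lower (12.8% and 18% of named genes), among them PKP1 (2.82 ± 0.24), PPL (1.60 ± 0.16), PKP2 (1.13 ± 0.11), DSC2 (1.11 ± 0.10), CLDN8 (1.06 ± 0.16) and DSG2 (1.04 ± 0.08). OCLN (0.99 ± 0.13), TJP1 (0.87 ± 0.10) and JUP (0.64 ± 0.07) were called too. All 16 genes raised by MPA at 16 h were among these 19 (100% and 84.2%), beside 76.5% of the named genes raised by MPA and 65.8% of those raised by E2+MPA, and again no array is shared.

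Adding fresh E2 to MPA was then tested directly. Between E2+MPA and MPA at 16 h, 7 junction genes were higher and 1 was lower (2.32% and 1.63% of named genes): DSC2 by 0.70 ± 0.10, CLDN1 by 0.67 ± 0.12, OCLN by 0.57 ± 0.13, TJP1 by 0.49 ± 0.10, JUP by 0.47 ± 0.07, NECTIN4 by 0.39 ± 0.11 and DSG2 by 0.35 ± 0.08. CLDN8 went the opposite way. It measured 8.30, 8.51 and 8.63 with MPA and 7.68, 7.31 and 7.42 with E2+MPA, which was -1.01 ± 0.16 (adjusted p = 0.000262), and the arrays did not overlap. DSC2 measured 9.14, 9.27 and 9.29 with MPA and 9.68, 10.16 and 9.94 with E2+MPA (adjusted p = 0.000106). The gain of NECTIN4 was near the threshold (adjusted p = 0.0472) and was lost without the filter on low values (0.0678), with centring (0.0844), with the replicate block (0.0647) and without any 1 of the 3 MPA arrays or E2+MPA replicate 2 or 3 (0.0813 to 0.243). The count of 8 fell to 4 without the second E2+MPA array, where OCLN, TJP1 and NECTIN4 were among those lost, and to 5 without the first MPA array, and 0 were called when these 6 arrays were fitted alone.

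With P4 in place of MPA, fresh E2 gave 0 called junction genes between E2+P4 and P4 at 16 h (0% of named genes in each direction), where 8 had an unadjusted p under 0.05 in limma. For CLDN8 the difference was -0.14 (95% interval -0.44 to 0.16), for DSC2 0.02 (-0.18 to 0.21), for JUP 0.04 (-0.09 to 0.18) and for CLDN1 0.00 (-0.22 to 0.21). PKP1 stood out by its spread. Its E2+P4 arrays read 6.99, 8.58, 7.31, 7.32 and 8.33, from the range of the P4 arrays to well below it, and the difference of -0.81 was not called (95% interval -1.24 to -0.37, adjusted p = 0.248). PKP2 split over the same arrays, with 9.66, 10.18, 9.68, 9.81 and 10.27, and -0.29 (-0.48 to -0.09). Without the fifth E2+P4 array both were called lower, and without the second PKP1 was.

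The direct comparison of E2+MPA with E2+P4 called 9 junction genes higher and 1 lower (4.5% and 6.1% of named genes). Those higher with E2+MPA were PKP1 (0.86 ± 0.21, groups overlapping), PPL (0.73 ± 0.14), PKP2 (0.54 ± 0.10), OCLN (0.54 ± 0.12), DSC2 (0.53 ± 0.09), TJP1 (0.49 ± 0.09), NECTIN3 (0.43 ± 0.12), JUP (0.37 ± 0.07) and DSG2 (0.26 ± 0.07). CLDN8 was the lower one, at -0.80 ± 0.15 (adjusted p = 0.000452), with 8.18, 8.27, 8.30, 8.36 and 8.23 in E2+P4, all above the E2+MPA arrays. The count fell to 6 without the second E2+MPA array, and to 1, CLDN8, when these 8 arrays were fitted alone. VCL, the gene of vinculin at the actin side of adherens junctions, was also higher with E2+MPA than with E2+P4, by 0.88 on the log2 scale.

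Whether fresh E2 acted differently beside MPA than beside P4 was tested as 1 contrast, added after the values had been seen. The effect was more positive beside MPA for 6 junction genes and more negative for 1 (2.31% and 0.75% of named genes). The 6 were DSC2 (0.68 ± 0.14, adjusted p = 0.00664), CLDN1 (0.67 ± 0.16), OCLN (0.66 ± 0.18), TJP1 (0.56 ± 0.14), JUP (0.43 ± 0.10) and DSG2 (0.38 ± 0.10), and the 1 was CLDN8 (-0.87 ± 0.22, adjusted p = 0.0303). These calls rest on few arrays. Without the second E2+MPA array 0 were called, without the third P4 array only DSC2 was, without the first MPA array CLDN8, DSC2 and JUP were, and 0 were called when these 14 arrays were fitted alone. Leaving out any 1 of several other arrays (E2+MPA replicate 3, E2+P4 replicates 3 and 4, MPA replicates 2 and 3) left CLDN1, DSC2, JUP and TJP1.

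**Figure D4:**
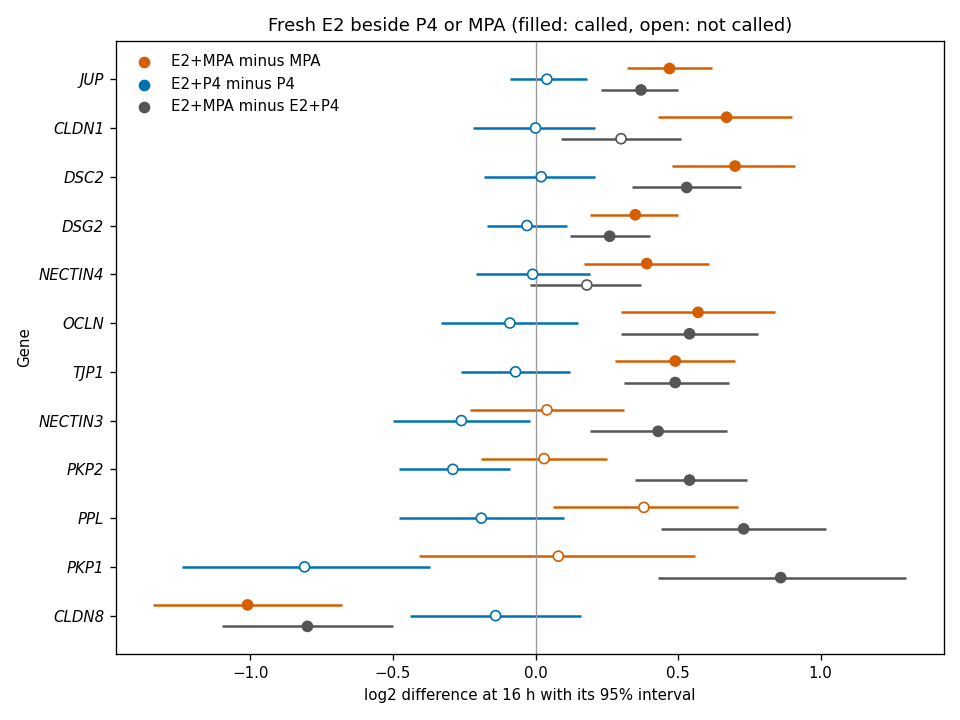
Log2 difference at 16 h with its 95% interval for 12 junction genes in 3 comparisons: E2+MPA minus MPA, E2+P4 minus P4, and E2+MPA minus E2+P4, with filled points for called differences. For JUP, CLDN1, DSC2, DSG2, NECTIN4, OCLN and TJP1 the E2+MPA minus MPA interval lies above 0 and the E2+P4 minus P4 interval spans 0, and CLDN8 lies at -1.01 against -0.14.

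Without fresh E2 the 2 progestins, both at 10 nM, were not told apart in these genes. MPA against P4 called 0 of 43 junction genes at each of 4, 8 and 16 h, while 9, 3 and 6 had an unadjusted p under 0.05 in limma. Of all named genes, 0.0149%, 0% and 0.0223% were called higher with MPA at these times, and 0.00743%, 0% and 0.00743% were called lower. This does not show equal action. The 95% intervals for all 43 lay between -0.93 and 0.80 at 4 h, between -0.87 and 0.62 at 8 h and between -0.82 and 0.68 at 16 h. The widest difference was that of CLDN8 at 4 h, -0.59 (95% interval -0.93 to -0.26, adjusted p = 0.26), and at 16 h CLDN10 gave -0.50 (-0.82 to -0.18, adjusted p = 0.382) and CLDN1 -0.37 (-0.61 to -0.13, adjusted p = 0.389).

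Of 35 other junction genes listed by role (adherens, tight, polarity, desmosome-linked and gap junction genes), 16 were measured here and 14 were tested. After 16 h 5 were higher and 2 lower with P4 (13.4% and 12% of named genes) and likewise 5 and 2 with MPA (11% and 14.5%). VCL was higher by 1.42 ± 0.18 with P4, and the tight junction membrane protein gene MARVELD3 by 1.22 ± 0.16 and the scaffold gene CGN by 0.72 ± 0.15. Priming raised 0 and lowered 5 of the 14 (3.92% and 8.23% of named genes), among them PATJ (-0.81), a polarity scaffold, CGN (-0.64) and MARVELD3 (-0.64). Of 15 listed regulators known to act on junction genes, 14 were tested. They are transcription factors, except for the splicing regulators ESRP1 and ESRP2. After 4 h of P4, 6 were higher and 4 lower (6.88% and 5.43% of named genes), with ESRP1 (-0.26) and ESRP2 (-0.51) among the lower. SNAI1, a repressor of epithelial junction genes that binds E-boxes, was higher by 1.27 at 4 h and stood at 0.14, not called, at 16 h of P4. SNAI2, a repressor of the same family, was higher by 1.22 at 4 h and 2.19 at 16 h. GRHL1 and GRHL2, activators of epithelial junction genes, were higher by 1.12 and 0.57 at 4 h, and OVOL1 and GRHL3 were lower (-1.0 and -0.83). Priming lowered GRHL1 (-1.21) and GRHL3 (-1.25). The part of these regulators in the changes of the junction genes was not tested. KRT5, a keratin of basal and myoepithelial cells, was higher by 1.28 at 16 h of P4, and it was the 1 of 4 tested myoepithelial markers called there. Of the 6 luminal markers tested, 1 was higher and 2 were lower there (13.4% and 12% of named genes), the lower being ESR1 (-2.10) and GATA3 (-0.80). The part of these markers in the results was not tested. FN1, the fibronectin gene, fell by 1.66. In such bulk samples fewer cells of a type and less RNA per cell cannot be told apart.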

How the data were processed

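The deposited values are log2 RMA values per transcript cluster of Affymetrix Gene ST arrays, made by the authors from all arrays together, and the submitters' processing notes name RMA and limma without versions. All 44 arrays were used and 0 value columns were left unused. Of 53617 clusters 16098 carried 1 symbol, and the cluster with the highest mean stood for a gene. Clusters above the 30th percentile of their array (4.47 to 4.60) on at least 3 arrays were tested. Limma 3.58.1 in R 4.3.3 fitted 14 group means with 30 residual degrees of freedom, two-sided, with Benjamini-Hochberg adjustment over 41374 clusters, and the fit was tested on simulated data. A bound for a group not above background sets the mean of the other group against that percentile and carries no sampling error. The number of arrays limits the precision.

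Named in each comparison were up to 6 called genes with the highest and 6 with the lowest change, with values on every array for genes called with a change of at least 1 log2, and the usual junction genes throughout. Other genes were chosen after their values were seen. The genes and lists were chosen with earlier results of these data known. Alternatives were no filter, array weights, the interquartile range of each array as a covariate, the replicate number as a block, centring on array medians, a fit of the compared arrays alone, and leaving out each array. Some items are not reported here.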

Additional observations from a re-analysis of the deposited data

Results flagged for a closer look

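The effect of P4 at 16 h differed from that at 4 h by a test of the difference itself for the 6 junction genes with the largest such differences. On the log2 scale these were 1.65 for PKP1, 1.54 for NECTIN4, 1.10 for CLDN1, 1.01 for CLDN4, 0.88 for CLDN23 and 0.87 for PPL. With MPA the differences were 1.39 for PKP1, 1.24 for NECTIN4, 0.92 for PPL, 0.82 for DSG2, 0.71 for DSP and 0.67 for DSC2. All 12 were toward a higher effect at 16 h. That of PPL was lost with P4 without the third P4 16 h array (0.77, adjusted p = 0.0508) and with MPA without the second MPA 4 h array (0.81, 0.0512). In the group of 5 arrays, E2+P4, Dixon's criterion for a single array marked none of 16 junction genes. It cannot mark a split of several arrays, such as that of PKP1 into 8.58 and 8.33 against 6.99, 7.31 and 7.32.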

How the results depend on the processing

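In the 102 changes named by the rule, 0 reversed under any alternative, 561 of 612 alternative values kept their call and 51 did not pass, 41 of these when only the compared arrays were fitted. A reversal could not occur without the filter or with only the compared arrays, because both leave the differences between group means as they were. Of 712 values with 1 array left out, 668 kept the call. With only the compared arrays, called genes numbered 8 for priming (from 15), 2 for P4 4 h (10), 3 for MPA 4 h (11), 10 for MPA 16 h (17), 1 for E2+MPA against E2+P4 (10), 0 for E2+MPA against MPA (8), 9 and 3 for 16 h against 4 h of P4 (15) and MPA (12), and 0 for vehicle over time (2). Such fits have fewer residual degrees of freedom. Array weights gave 21 for P4 8 h (13), 1 for fresh E2 (0) and 6 for vehicle over time, which had 1 without the filter, 4 with the interquartile range, 1 with centring and 1 with the replicate block. The cause of these shifts was not tested.

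With each array left out in turn, counts ranged from 12 to 15 for priming, 8 to 12, 10 to 12 and 19 to 21 for P4 at 4, 8 and 16 h, 7 to 12, 12 to 16 and 16 to 19 for MPA, 0 to 0 for MPA against P4 at each time and for fresh E2, 16 to 19 for E2+P4 and 18 to 21 for E2+MPA against E2, 6 to 11 for E2+MPA against E2+P4, 0 to 2 for E2+P4 against P4, 4 to 9 for E2+MPA against MPA, 14 to 16 and 7 to 13 for 16 h against 4 h of P4 and MPA, and 1 to 2 for vehicle over time. The low counts of 7 both came without the second MPA 4 h array.

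Replicate numbers were not shown to pair samples: residuals of same-numbered arrays correlated with a median of 0.02 (-0.55 to 0.55), beside -0.01 for other numbers. The replicate block lost 2 named calls, CLDN34 at 4 h of P4 and NECTIN4 in E2+MPA against MPA (adjusted p = 0.0647), and gave 4 in place of 7 for the fresh E2 difference. No gene had a further cluster to try.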
